A study of Homo sapiens with 8 samples.

Results

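The TNFR1 complex is the set of proteins that gathers at the cell surface receptor for tumour necrosis factor alpha (TNF-alpha), and it is described here through the transcripts of 10 genes: the receptors TNFRSF1A (TNFR1) and TNFRSF1B (TNFR2), the adaptors TRADD, FADD and RIPK1, the kinase MAP3K7 (TAK1) with its adaptor TAB2, and the kinase subunits IKBKB, CHUK and IKBKG. All probe sets that the array's annotation assigns to 1 of these genes were taken, which gave 9 of the 10 genes, of 18132 named by its single-gene probe sets, and 43 of its 49395 probe sets. RIPK1 had none among the annotated probe sets and was not analysed here. A probe set was compared where its log2 intensity reached 6 on at least 1 array, and 33 of the 43 did. Of all probe sets on the array, 26938 were compared.

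The samples were KBM7 cells, a near-haploid human chronic myeloid leukaemia line in which a single gene-trap insertion can disrupt a gene. The TNFRSF1A mutant was measured after 6 hours with TNF-alpha at 10 ng/ml and unstimulated, and so was the wild type (WT), whose unstimulated sample in this experiment is called WT replicate 2. A JAK2 mutant was measured after 6 hours with IFN-gamma at 100 ng/ml and unstimulated, beside WT with IFN-gamma and a second unstimulated WT sample, WT replicate 1. JAK2 is a kinase of interferon receptors. That makes 8 Affymetrix PrimeView arrays in 7 conditions. All samples are of the same line and differ, by their labels, in the trapped gene and the cytokine. The labels describe the mutants as lacking expression of JAK2 or of TNFR1. They give neither the number of clones nor the position of the insertions. Whether a probe set lies before or behind an insertion is thus not known.

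Only unstimulated WT had 2 arrays, and nothing in the labels says whether they came from separate cultures. The pair leaves 1 residual degree of freedom, so replicate error is poorly known, and a difference of at least 2-fold (1 on the log2 scale) was used to name what was higher or lower. The 2 WT arrays differed with an SD of 0.40 on the log2 scale over the compared probe sets, against 0.14 between the 2 TNFRSF1A mutant arrays and 0.20 between WT with TNF-alpha and WT replicate 2. The WT pair thus held a larger spread than either comparison made within the TNF-alpha experiment, and 12.3% of all probe sets differed by 1.5-fold and 2.44% by 2-fold between those 2 unstimulated arrays. Background was judged from 2 sets of probe sets on each array. The upper quartile of 368 olfactory receptor probe sets lay between 4.72 and 4.83 on the log2 scale, and that of the array's 23 background control probe sets lay between 5.76 and 6.04. Values up to the second limit are described as in the control range. The ratio of 3′ to 5′ actin signal, a sign of RNA quality and labelling, was 5.53 in the mutant with TNF-alpha, 4.51 in the unstimulated mutant, 4.81 in WT with TNF-alpha and 3.27 in WT replicate 2, and its part in the differences was not tested.

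When TNF-alpha binds TNFR1, the receptor's death domain recruits TRADD and RIPK1, and ubiquitin chains built on RIPK1 bring in TAK1 with TAB2 and the IKK complex of CHUK, IKBKB and IKBKG. IKK marks the NF-kappaB inhibitor for destruction, and NF-kappaB then switches on genes that include brakes on the same pathway, such as the ubiquitin-editing enzyme TNFAIP3 (A20). FADD leads instead to caspase-8 and cell death. TNFR2 lacks a death domain and is found mainly on immune and endothelial cells.

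The promoters of 3 genes frame the results: that of the trapped receptor gene, that of TNFAIP3 as the pathway gene with the largest response to TNF-alpha, and that of CHUK as a complex member with a matching motif. Each is 250 bases before and 50 bases after the start site, taken from RefSeq on assembly GRCh38.p14 and written 5′ to 3′ on the gene's own strand. Capitals mark a match to the NF-kappaB-like motif GGGANNNNCC, searched on both strands, where the reverse reads GGNNNNTCCC.
TNFRSF1A chr12:6342027-6342326 (minus strand): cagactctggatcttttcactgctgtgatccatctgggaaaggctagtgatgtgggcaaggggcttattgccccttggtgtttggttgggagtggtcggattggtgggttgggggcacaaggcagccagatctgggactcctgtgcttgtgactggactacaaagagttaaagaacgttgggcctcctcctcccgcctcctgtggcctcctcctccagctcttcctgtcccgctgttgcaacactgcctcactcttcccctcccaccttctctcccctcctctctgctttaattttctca
TNFAIP3 chr6:137867009-137867308 (plus strand): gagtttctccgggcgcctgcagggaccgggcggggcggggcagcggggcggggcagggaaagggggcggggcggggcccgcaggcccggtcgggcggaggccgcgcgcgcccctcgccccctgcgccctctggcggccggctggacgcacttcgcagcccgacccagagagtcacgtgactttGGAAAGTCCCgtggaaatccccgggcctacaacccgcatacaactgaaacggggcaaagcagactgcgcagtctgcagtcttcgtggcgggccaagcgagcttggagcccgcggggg
CHUK chr10:100229547-100229846 (minus strand): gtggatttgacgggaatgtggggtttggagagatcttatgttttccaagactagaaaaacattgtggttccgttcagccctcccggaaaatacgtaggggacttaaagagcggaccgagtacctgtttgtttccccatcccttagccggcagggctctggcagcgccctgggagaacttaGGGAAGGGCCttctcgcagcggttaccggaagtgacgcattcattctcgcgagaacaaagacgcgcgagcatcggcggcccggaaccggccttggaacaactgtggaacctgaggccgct
The TNFRSF1A window held no match. The match in the TNFAIP3 window began 67 bases before the start site, at position -67, and that of CHUK at -70. The motif was present in 28.6% of the windows of the complex (4 of 14) and in 25.6% of all 35116 windows in the table (8986). A window each of CHUK, IKBKG, RIPK1 and TAB2 held it, while other windows of IKBKG, RIPK1 and TAB2 did not. Those of TNFRSF1B, FADD and MAP3K7 did not hold it either. TRADD and IKBKB had no window. A match is a run of letters and not a shown binding site.

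TNFRSF1A, the trapped gene and the receptor that starts the pathway, was lower in the mutant on each of its 4 probe sets. The brightest, 11754297_s_at, had intensities of 93.9 with TNF-alpha and 94.5 unstimulated in the mutant, against 601 in WT with TNF-alpha and 655 in WT replicate 2. On the log2 scale these were 6.55 and 6.56 in the mutant, against 9.23 in WT with TNF-alpha and 9.36 in WT replicate 2. The 4 arrays of the other experiment lay higher still, at 9.83 in the JAK2 mutant with IFN-gamma, 9.77 in the unstimulated JAK2 mutant, 9.72 in IFN-gamma-treated WT and 9.68 in WT replicate 1. Both mutant arrays stood clear of all 6 others. The mutant was 6.93-fold lower unstimulated (log2 difference -2.79) and 6.41-fold lower with TNF-alpha (-2.68). Against WT replicate 1 the unstimulated difference was -3.11. The signal left in the mutant was above the control range on both arrays.

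The 3 dimmer TNFRSF1A probe sets ran the same way with smaller differences. Probe set 11739346_s_at had log2 values of 5.25 with TNF-alpha and 5.49 unstimulated in the mutant, against 6.68 in WT with TNF-alpha and 6.87 in WT replicate 2, and between 6.72 and 7.20 in the IFN-gamma experiment. Probe set 11752814_s_at had 6.03 with TNF-alpha and 5.38 unstimulated in the mutant, against 6.51 in WT with TNF-alpha and 6.71 in WT replicate 2, with 6.64 to 7.05 elsewhere. Probe set 11760872_at had 6.01 with TNF-alpha and 5.99 unstimulated in the mutant, against 6.29 in WT with TNF-alpha and 6.37 in WT replicate 2, with 6.09 to 6.36 elsewhere. On each of the 4 probe sets the mutant arrays did not overlap the other 6, as on 20.2% of all compared probe sets. All 3 dimmer probe sets lay in the control range in both mutant arrays, and none of them in the olfactory receptor range.

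Measured differences reached 2-fold on 3 of the 4 TNFRSF1A probe sets unstimulated, against 0.858% of all compared probe sets, and on 2 of 4 with TNF-alpha, against 1.09%. With the mutant's value replaced by the upper limit of the control range where that was higher, only 11754297_s_at did so in either pair. Probe set 11739346_s_at was then at least 0.86 lower on the log2 scale unstimulated and at least 0.63 lower with TNF-alpha, and 11752814_s_at at least 0.70 and at least 0.47 lower. For 11760872_at the bounds were 0.35 unstimulated and 0.24 with TNF-alpha. A limma fit of the 7 conditions used the mean of both unstimulated WT arrays as the unstimulated control. Its differences on 11754297_s_at were -2.95 unstimulated and -2.68 with TNF-alpha. That fit takes its error from the WT pair alone, so no significance is claimed from it.

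**Figure D1:**
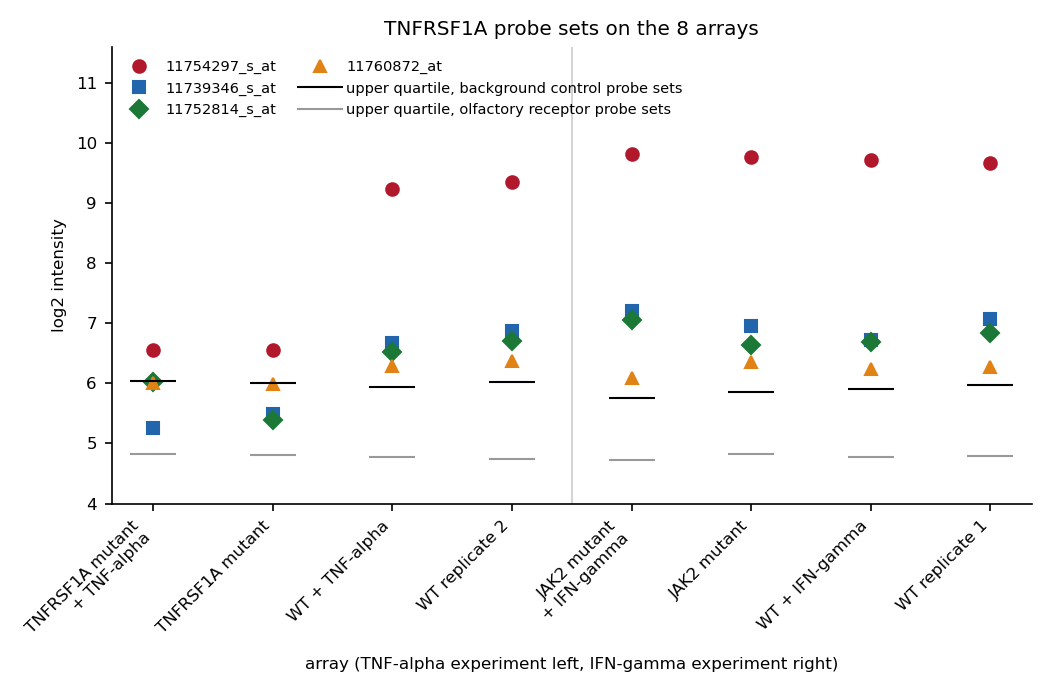
Log2 intensity of the 4 TNFRSF1A probe sets on each of the 8 arrays, with the upper quartiles of the background control probe sets (black) and of the olfactory receptor probe sets (grey) as short lines. The brightest probe set sits at 6.55 and 6.56 in the mutant arrays and between 9.23 and 9.83 elsewhere, and the other 3 fall to the control range in the mutant.

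TNFRSF1B encodes TNFR2, the other receptor for TNF-alpha, and it was measured at nearly the same level in mutant and WT. Its brightest probe set, 11755013_x_at, had log2 values of 7.60 with TNF-alpha and 7.62 unstimulated in the TNFRSF1A mutant, against 7.66 in WT with TNF-alpha and 7.62 in WT replicate 2. The differences were -0.06 with TNF-alpha and -0.01 unstimulated. In the IFN-gamma experiment it ran between 7.69 in WT replicate 1 and 7.83 in the JAK2 mutant with IFN-gamma. The second compared probe set, 11718807_at, had 6.91 with TNF-alpha and 7.01 unstimulated in the TNFRSF1A mutant, against 6.96 in WT with TNF-alpha and 7.19 in WT replicate 2, with 7.24 to 7.44 elsewhere. Both mutant arrays of 11755013_x_at lay below the other 6, by a margin under 0.1, and those of 11718807_at did not. The 2 mutant arrays stood apart from the other 6, higher or lower, on 20.2% of all compared probe sets. The remaining TNFRSF1B probe set was in the control range on all 8 arrays.

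TRADD, the adaptor that binds the receptor's death domain, gave log2 values on 11725373_a_at of 8.40 with TNF-alpha and 8.38 unstimulated in the TNFRSF1A mutant, against 8.56 in WT with TNF-alpha and 8.55 in WT replicate 2. The mutant was 0.16 to 0.17 below its WT in both pairs. WT replicate 1 at 8.34 and WT with IFN-gamma at 8.33 were lower than either mutant array, and the JAK2 mutant had 8.59 with IFN-gamma and 8.60 unstimulated. The mutant values therefore lay inside the range of the WT arrays. The other TRADD probe set was in the control range on all 8 arrays.

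FADD, the adaptor to caspase-8, had log2 values on 11716800_at of 9.74 with TNF-alpha and 9.78 unstimulated in the TNFRSF1A mutant, against 9.49 in WT with TNF-alpha and 9.55 in WT replicate 2. The differences were 0.24 with TNF-alpha and 0.23 unstimulated. Against WT replicate 1, whose value was 9.91, the unstimulated difference was -0.13. The JAK2 mutant had 9.88 with IFN-gamma and 9.85 unstimulated, and WT with IFN-gamma had 9.80. The second FADD probe set, 11716799_at, had 7.63 with TNF-alpha and 7.71 unstimulated in the mutant, against 7.44 in WT with TNF-alpha and 7.72 in WT replicate 2. Its mutant and WT values overlapped, and the remaining probe set was in the control range on all 8 arrays.

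MAP3K7 encodes TAK1, the kinase that activates IKK, and it stayed level in both pairs. On 11743919_a_at the TNFRSF1A mutant had log2 values of 9.97 with TNF-alpha and 9.95 unstimulated, against 9.97 in WT with TNF-alpha and 9.78 in WT replicate 2, and the IFN-gamma experiment spanned 9.94 to 10.10. Probe set 11736829_a_at had 9.88 with TNF-alpha and 9.95 unstimulated in the mutant, against 9.91 in WT with TNF-alpha and 9.88 in WT replicate 2. Of the 6 compared MAP3K7 probe sets, the difference farthest from 0 between mutant and WT was -0.25, on 11742225_a_at with TNF-alpha. Mutant and WT arrays overlapped on these probe sets when both experiments were counted.

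TAB2, which ties TAK1 to ubiquitin chains, had the lowest mutant minus WT difference among members other than TNFRSF1A in both pairs of the TNF-alpha experiment. Its brightest probe set, 11757315_s_at, had log2 values of 10.06 with TNF-alpha and 10.07 unstimulated in the TNFRSF1A mutant, against 10.45 in WT with TNF-alpha and 10.35 in WT replicate 2. The differences were -0.39 with TNF-alpha and -0.28 unstimulated. WT replicate 1 and WT with IFN-gamma, at 9.84 and 9.85, were lower than the mutant, and the JAK2 mutant was lowest with 9.51 with IFN-gamma and 9.44 unstimulated. Against WT replicate 1 the unstimulated TNFRSF1A mutant was 0.23 higher, so the sign depended on the WT array. On 11743012_at the differences were -0.31 with TNF-alpha and 0.01 unstimulated, on 11750741_a_at -0.23 and -0.19, and on 11754101_x_at -0.14 and -0.35 in the same order.

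IKBKB encodes IKK-beta, the catalytic subunit that phosphorylates the NF-kappaB inhibitor, and it was the member with the highest values in the mutant relative to WT replicate 2. On its brightest probe set, 11730928_a_at, the log2 values were 10.15 with TNF-alpha and 10.08 unstimulated in the TNFRSF1A mutant, against 9.85 in WT with TNF-alpha and 9.57 in WT replicate 2. The differences of 0.30 with TNF-alpha and 0.51 unstimulated did not reach 1.5-fold. The IFN-gamma experiment lay between 10.21 and 10.28, and WT replicate 1 was at 10.24. WT replicate 2 was the lowest of all 8 arrays, 0.68 below WT replicate 1, and against WT replicate 1 the unstimulated mutant was lower (-0.17). WT replicate 2 also had the lowest actin ratio of the 8 arrays, and a link to the IKBKB values was not tested.

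On the second IKBKB probe set, 11730929_s_at, WT replicate 2 was again the lowest array. Its log2 values were 8.71 with TNF-alpha and 8.74 unstimulated in the TNFRSF1A mutant, against 8.53 in WT with TNF-alpha and 8.22 in WT replicate 2, with 8.81 in WT replicate 1 and up to 9.13 elsewhere. On 11730930_a_at the mutant was 0.34 higher with TNF-alpha and 0.33 higher unstimulated. Of the other 8 IKBKB probe sets, 2 were in the control range on all 8 arrays, and the 6 compared differed by -0.16 to 0.27 over both pairs.

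CHUK, which encodes IKK-alpha, had 1 probe set, 11754797_a_at. Its log2 values were 8.38 with TNF-alpha and 8.46 unstimulated in the TNFRSF1A mutant, against 8.43 in WT with TNF-alpha and 8.50 in WT replicate 2. The differences of -0.05 with TNF-alpha and -0.04 unstimulated were far smaller than the step to the other experiment, where the JAK2 mutant had 9.26 with IFN-gamma and 9.07 unstimulated, WT with IFN-gamma had 9.02 and WT replicate 1 had 8.80. The 4 arrays of the TNF-alpha experiment did not overlap these, as on 38.1% of all compared probe sets.

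IKBKG, the regulatory subunit NEMO, was barely above background. Its brightest probe set, 11755329_x_at, had log2 values of 6.09 with TNF-alpha and 6.35 unstimulated in the TNFRSF1A mutant, against 6.05 in WT with TNF-alpha and 6.16 in WT replicate 2, with 6.01 to 6.43 elsewhere. Of its 8 probe sets, 4 were in the control range on all 8 arrays. The human genome also holds a near-identical IKBKG pseudogene, and the array cannot tell the 2 apart where probes match both, so these values are uncertain.

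**Figure D2:**
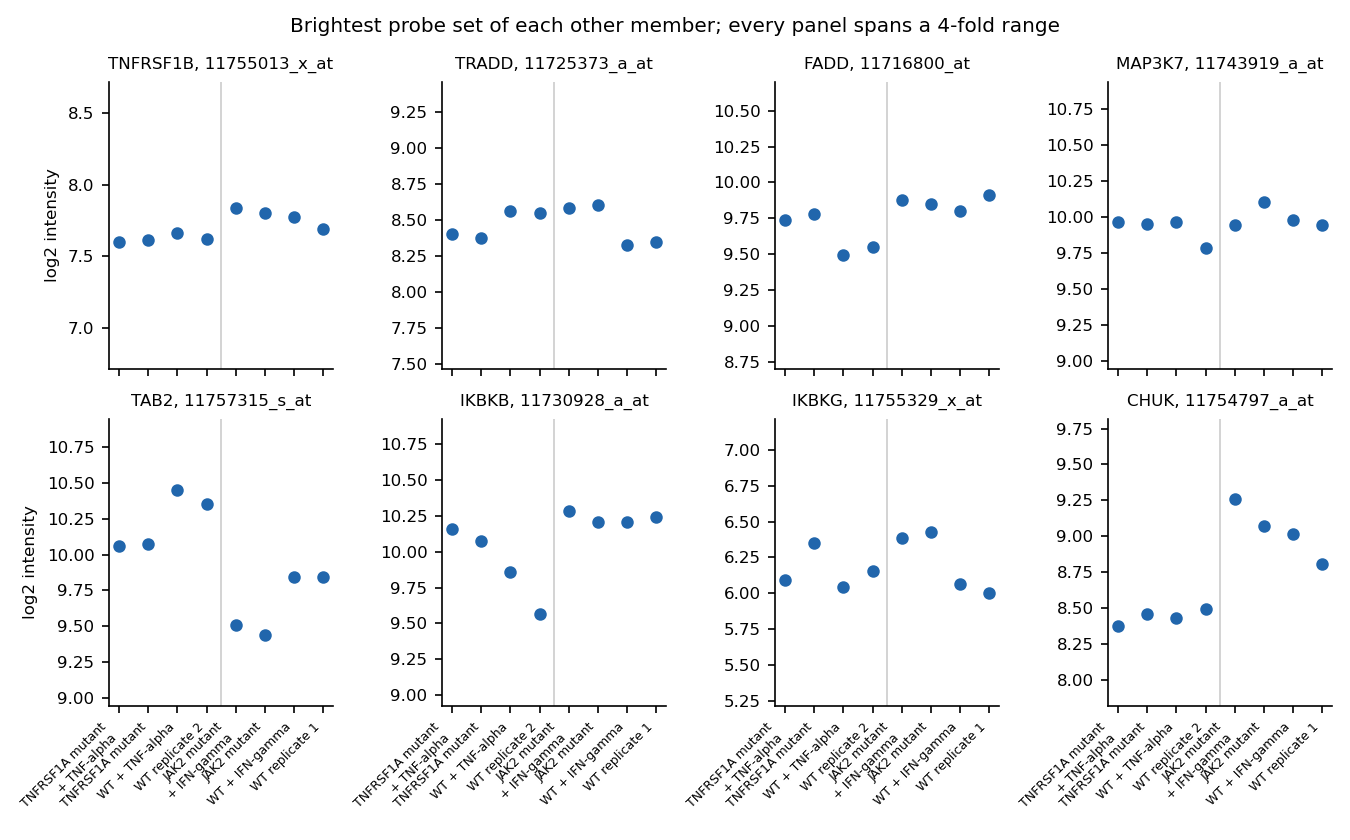
Log2 intensity of the brightest probe set of each member other than TNFRSF1A on the 8 arrays, with a 4-fold range on every axis and a grey line between the TNF-alpha experiment (left) and the IFN-gamma experiment (right). CHUK lies between 8.38 and 8.50 left of the line and between 8.80 and 9.26 right of it, and no member shows a 2-fold step left of the line. The 2 experiments did not overlap on 38.1% of all compared probe sets.

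Over the 29 compared probe sets of the complex other than TNFRSF1A, 0 differed by 2-fold between the unstimulated mutant and WT replicate 2, against 0.858% of all compared probe sets. At 1.5-fold the count was also 0, against 3.88% of all. The median difference was 0.04 on the log2 scale, beside 0.01 over all probe sets, and the range ran from -0.35 (TAB2) to 0.52 (IKBKB). Between the mutant and WT with TNF-alpha, 0 of the 29 passed 2-fold and 0 passed 1.5-fold, against 1.09% and 3.76% of all probe sets. Here the median was -0.03, beside -0.01 over all, and the range was -0.39 (TAB2) to 0.34 (IKBKB). With shares this low over the whole array, a count of 0 among 29 is close to the background.

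**Figure D3:**
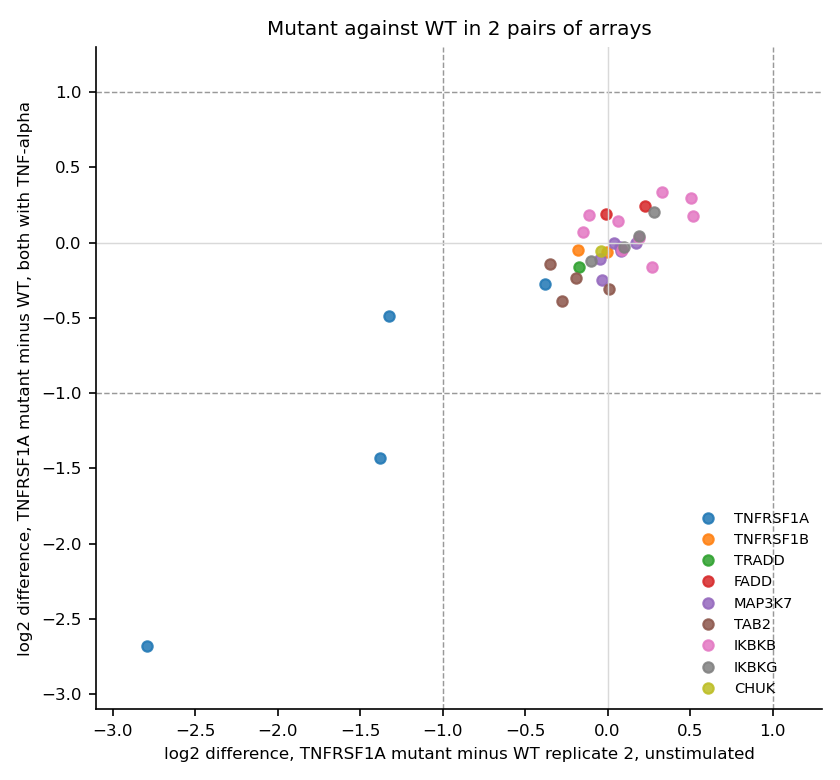
Log2 difference of mutant minus WT for the 33 compared probe sets, unstimulated on the horizontal axis and with TNF-alpha on the vertical axis, with dashed lines at 2-fold. The TNFRSF1A probe sets reach -2.79 and -2.68, and all 29 others stay between -0.39 and 0.52.

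The sign of several small differences turned on which unstimulated WT array was the control. FADD, TAB2 and IKBKB changed sign on their brightest probe sets, and so did TRADD, at -0.17 against WT replicate 2 and 0.03 against WT replicate 1. CHUK was 0.04 lower than WT replicate 2 but 0.35 lower than WT replicate 1, with differences of -0.04 and -0.35. Between the 2 WT arrays themselves, 0 of the 33 probe sets differed by 2-fold, 2 IKBKB probe sets were lower by 1.5-fold in WT replicate 2, and the range was -0.68 (IKBKB) to 0.51 (TAB2). That share of members stands beside the 12.3% of all probe sets at 1.5-fold given above.

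**Figure D4:**
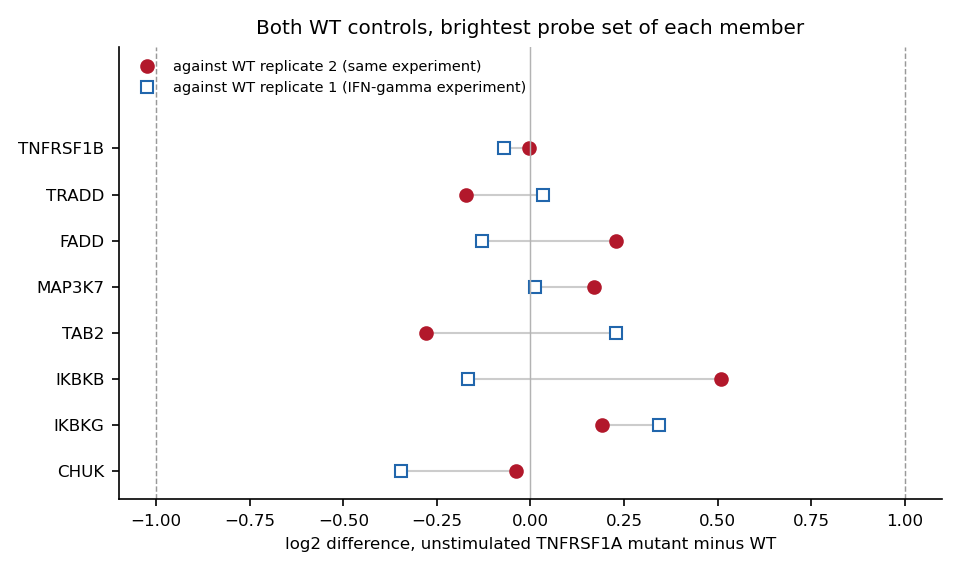
Log2 difference of the unstimulated TNFRSF1A mutant minus each unstimulated WT array, for the brightest probe set of each member other than TNFRSF1A, with dashed lines at 2-fold. IKBKB moves between 0.51 and -0.17 and TAB2 between -0.28 and 0.23 with the choice of WT array.

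The members' values were also compared between the experiments. On 11 of the 33 compared probe sets the 4 arrays of the TNF-alpha experiment did not overlap the 4 of the IFN-gamma experiment, 8 of them lower and 3 higher, a share below the 38.1% of all compared probe sets. The 3 higher ones all belonged to TAB2. The 8 lower ones came from TNFRSF1A, TNFRSF1B (2), FADD, MAP3K7, IKBKB (2) and CHUK. The WT arrays alone are split in the same way on these 11 probe sets, which follows from how they were chosen and adds no support. By the same measure, the 2 TNFRSF1A mutant arrays stood apart from the other 6 on 2 of the 29 probe sets of the other members, 1 of TNFRSF1B and 1 of IKBKG, both lower, against 20.2% of all compared probe sets.

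In WT, TNF-alpha left the transcripts of the complex within 1.5-fold of WT replicate 2. Of the 33 probe sets, 0 passed 2-fold and 0 passed 1.5-fold in WT with TNF-alpha against WT replicate 2, beside 0.286% and 1.15% of all probe sets. The median was 0.01, and the range ran from -0.28 (FADD) to 0.33 (IKBKB). TNFRSF1A itself differed by -0.12 on 11754297_s_at and TNFRSF1B by 0.04 on 11755013_x_at. IKBKB differed by 0.29 on 11730928_a_at and 0.31 on 11730929_s_at, and these values share WT replicate 2 with the mutant comparison above. Against WT replicate 1 the first of them was -0.39, and 1 of the 33 probe sets, TAB2 11757315_s_at at 0.61, passed 1.5-fold, beside 11.3% of all probe sets.

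In the TNFRSF1A mutant, TNF-alpha moved 0 of the 33 probe sets by 2-fold, and over the whole array the share was also 0%. At 1.5-fold 1 passed, against 0.0928% of all probe sets. It was 11752814_s_at of TNFRSF1A, 0.64 higher with TNF-alpha, and both of its mutant values, 6.03 and 5.38, lay in the control range. The other 3 TNFRSF1A probe sets gave -0.01, -0.24 and 0.02. The members' median was -0.03, the same as over all probe sets, and the lowest value was -0.26 (IKBKG).

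In the IFN-gamma experiment the members also stayed under 2-fold. Between the unstimulated JAK2 mutant and WT replicate 1, 0 of 33 passed 2-fold (1.83% of all probe sets) and 1 passed 1.5-fold (5.64%), an IKBKB probe set, 11750345_a_at, with values of 6.09 in the JAK2 mutant and 5.45 in WT replicate 1. The WT value lay in the control range, and against the limit of that range the difference was 0.12, under 1.5-fold. TAB2 was lowest at -0.40. For the IFN-gamma response of WT, set against WT replicate 1, 0 passed 2-fold (0.598%) and 0 passed 1.5-fold (1.56%), and the values ran from -0.36 (TNFRSF1A) to 0.21 (CHUK). In the JAK2 mutant with IFN-gamma against the unstimulated JAK2 mutant, 0 passed 2-fold (0.026%) and 1 passed 1.5-fold (0.427%), IKBKB 11746648_a_at at 0.67 (0.65 against the limit of the control range). Both IKBKB probe sets were dim, at 6.51 or below on every array.

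The wider pathway was followed through 44 further genes, of which 37 were compared, each by its brightest probe set. TRAF2, BIRC3, SPATA2, MAP2K7 and MAPK14 were not analysed here, and the ligand TNF itself stayed between 5.08 and 5.18 in the TNF-alpha experiment, below the level for comparison, as did MAP2K6. In WT with TNF-alpha, 1 of the 37 genes rose by 2-fold and 5 by 1.5-fold, against 0.321% and 1.17% of the 11529 genes compared, and 0 fell. In the TNFRSF1A mutant with TNF-alpha 0 of the 37 moved by either threshold, against 0% and 0.0434% of all genes. The list's median response was -0.03 in the mutant and 0.09 in WT, beside -0.02 and 0.01 over all genes. In the limma fit of the 7 conditions, a contrast of the mutant and WT responses gave 0 of 26938 probe sets with an adjusted p under 0.05 and 77 with an unadjusted p under 0.05, 1 of them of a member (11752814_s_at of TNFRSF1A, in the control range in the mutant).

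TNFAIP3, the ubiquitin-editing enzyme A20 that turns the pathway off, was the gene that passed 2-fold. Its log2 values were 10.13 with TNF-alpha and 10.02 unstimulated in the TNFRSF1A mutant, against 11.96 with TNF-alpha and 9.60 unstimulated (replicate 2) in WT. The response was 0.12 in the mutant and 2.36 in WT, so WT with TNF-alpha stood far above the other 3 arrays. The mutant minus WT difference was -1.82 with TNF-alpha and 0.42 unstimulated. Its limma contrast of responses, against the mean of both unstimulated WT arrays, was -2.52. TNFAIP3 was also lower by 2-fold without TNF-alpha in the JAK2 mutant, at 6.71 against 9.06 in WT replicate 1 (-2.35). The matching motif shown above lies in its promoter window, as in 25.6% of all windows, and a link to the response was not tested.

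TANK, TRAF1, CYLD and IKBKE rose by 1.5-fold in WT against WT replicate 2, and IKBKE did not against WT replicate 1 (0.21). TANK, a scaffold of the IKK-related kinases, had 10.10 with TNF-alpha and 10.03 unstimulated in the mutant, against 10.87 with TNF-alpha and 10.15 unstimulated in WT, a response of 0.07 in the mutant and 0.72 in WT. TRAF1, an adaptor that binds TNFR2, responded by -0.06 in the mutant and 0.63 in WT. CYLD, which removes ubiquitin chains from the complex, responded by 0.11 in the mutant and 0.59 in WT. IKBKE, an IKK-related kinase, responded by -0.00 in the mutant and 0.59 in WT. All 4 stayed within 0.11 of 0 in the mutant.

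By role, the median response in WT was 0.36 over the 4 deubiquitinases and 0.34 over the 4 IKK-related kinases. Neither role rose as a whole. Beside TNFAIP3 and CYLD, the deubiquitinases OTUD7B and OTULIN responded by 0.12 and 0.06 in WT. Beside TANK and IKBKE, the IKK-related genes AZI2 and TBK1 responded by 0.09 and 0.05. Among the ubiquitin ligases of the receptor complex, BIRC2 (cIAP1) had a response of -0.07 in the mutant and 0.39 in WT, while TRAF5 and XIAP were within 0.1 of 0 in both. The linear ubiquitin ligase RNF31, RBCK1 and SHARPIN ranged from -0.13 to 0.09 in WT. In the death arm CFLAR, an inhibitor of caspase-8, responded by -0.08 in the mutant and 0.39 in WT, and RIPK3, the necroptosis kinase, by 0.10 in the mutant and 0.33 in WT (-0.02 against WT replicate 1). The MAP kinase arm ranged from 0.01 to 0.22 in WT, with MAP2K3 highest. Ligands and shedding enzymes ranged from 0.02 to 0.20 in WT, with ADAM17, which cuts TNF-alpha from the cell surface, highest. Of the TAK1 partners TAB1, TAB3 and MAP3K3, the highest was MAP3K3 at 0.16. Among other receptor partners, TNFAIP8 responded by -0.04 in the mutant and 0.36 in WT, and TRAF6 by 0.12 in the mutant and 0.33 in WT.

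**Figure D5:**
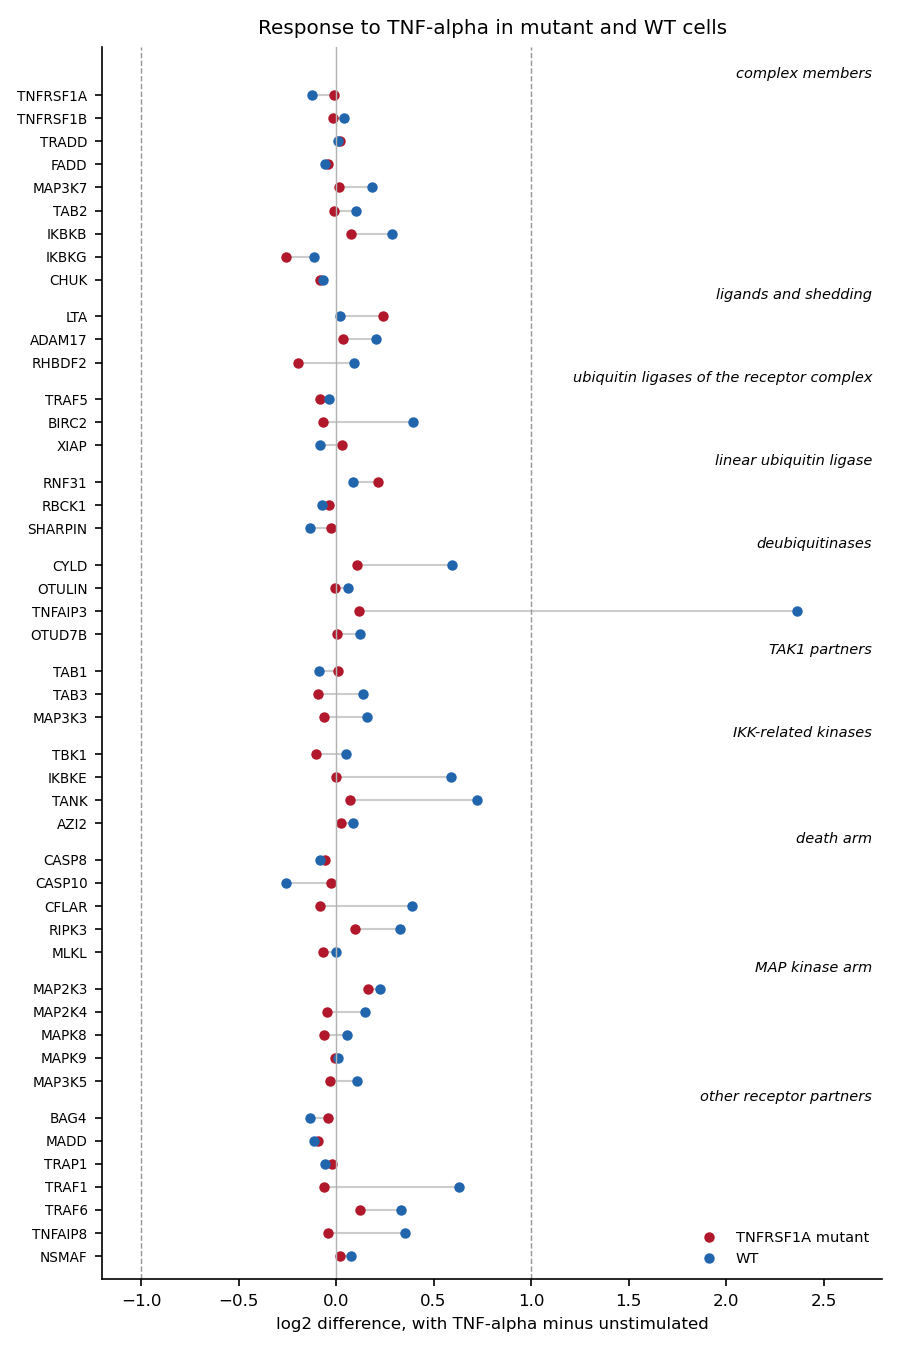
Log2 difference with TNF-alpha minus unstimulated in the TNFRSF1A mutant (red) and in WT (blue), for the brightest probe set of each complex member and for the 37 pathway genes grouped by role, with dashed lines at 2-fold. TNFAIP3 reaches 2.36 in WT and 0.12 in the mutant, while complex members stay between -0.26 and 0.29.

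Without stimulation, 0 of the 37 pathway genes differed by 2-fold between the mutant and WT replicate 2, against 0.98% of all genes, and 1 differed by 1.5-fold, against 3.83%. It was CASP10, an initiator caspase, lower by 1.5-fold with a difference of -0.62, and -0.39 with TNF-alpha. Its log2 value in WT replicate 1 was 7.26, below that of the unstimulated mutant at 7.39. MLKL, the executioner of necroptosis, differed by 0.45, and by -0.79 against WT replicate 1. With TNF-alpha, 1 gene (TNFAIP3) was lower by 2-fold in the mutant and 4 by 1.5-fold, against 1.22% and 3.76% of all genes, and 0 were higher. The 4 were TNFAIP3, TANK at -0.77, CFLAR at -0.69 and TNFAIP8 at -0.66. All of them had a positive response in WT.

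The choice of WT array also touched the pathway response. Against WT replicate 1, 7 of the 37 genes passed 1.5-fold in WT with TNF-alpha, beside 10.6% of all genes, and 4 passed 2-fold, beside 2.11%. The 4 were TNFAIP3 at 2.90, TRAF1 at 1.19, TANK at 1.15 and MLKL at -1.25. MLKL itself was 1.24 lower in WT replicate 2 than in WT replicate 1 (difference -1.24). TNFAIP3 kept the highest response of the 4 under either control.

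The gene pattern most like that of the brightest TNFRSF1A probe set was sought among 1472 genes whose log2 range over the arrays was at least 1. Of these, Y-linked genes and loci with placeholder names, such as LOC or FLJ, were passed over before ranking. By Pearson's r over the 8 arrays, the 5 closest were DNAH14 (0.990), FAM47E (0.986), PAG1 (0.982), PNMA8A (0.981) and SPAG16 (0.964), which lie on chromosomes 1, 4, 8, 19 and 2. Each of the 5 was lowest in the 2 TNFRSF1A mutant arrays, which a choice by likeness to this probe set largely fixes. The 8 points are the same arrays for every gene. PNMA8A had log2 values of 4.39 with TNF-alpha and 3.96 unstimulated in the mutant, against 8.13 in WT with TNF-alpha and 8.19 in WT replicate 2. Its fall was at least 2.18 on the log2 scale against the control range, and PAG1, an adaptor of Src-family kinases, fell by 1.49. DNAH14, FAM47E, PNMA8A and SPAG16 lay in the control range in both mutant arrays, so their falls are bounds, of which SPAG16 had the smallest, at least 0.94. Measured unstimulated differences were -4.23 for PNMA8A, -3.49 for DNAH14, -2.62 for SPAG16, -1.96 for FAM47E and -1.49 for PAG1. For the trapped receptor gene the measured difference was -2.79.

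Neighbours of TNFRSF1A on chromosome 12 were checked in the gene order of RefSeq, 5 on either side. Of 10, 6 were compared, and 1 differed by 2-fold in both pairs. CD9, a tetraspanin, had 9.02 with TNF-alpha and 8.87 unstimulated in the mutant, against 10.77 in WT with TNF-alpha and 10.52 in WT replicate 2, differences of -1.74 and -1.64. It was lower in the JAK2 mutant too, at 6.67 against 10.16 in WT replicate 1. LTBR, the lymphotoxin beta receptor of the same receptor family, had 9.47 with TNF-alpha and 9.51 unstimulated in the mutant, against 9.21 in WT with TNF-alpha and 9.18 in WT replicate 2.

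The labelled cell type was checked with marker lists. Of 6 measured myeloid progenitor markers, PTPRC (10.95 to 11.76) and MYB (11.20 to 11.85) were bright on all arrays, KIT and CEBPA were above the control range on all 8, MPO was in it on 1, and SPI1, which defines the myeloid lineage, was in it on all 8. The summed intensity of this list was 6336 to 6739 in the TNFRSF1A mutant and 6208 to 6966 in WT of the same experiment. CEBPA was higher in the mutant by 1.11 with TNF-alpha and by 1.01 unstimulated, while PTPRC differed by -0.45 and -0.12 and MPO by -0.09 and -0.32 in the same order. Against WT replicate 1 the CEBPA difference was under 2-fold, with log2 values of 8.44 in the unstimulated mutant and 8.26 in that array. Of 3 T cell markers, CD3E and CD2 were in the control range on all 8 arrays, while CD3D was lower in the mutant by 2-fold in both pairs, with differences of -1.32 with TNF-alpha and -1.17 unstimulated. Its log2 value was 8.74 in the unstimulated mutant and 9.33 in WT replicate 1, under 2-fold apart. The JAK2 mutant had 8.92 with IFN-gamma and 8.83 unstimulated. The summed T cell intensity was 497 to 503 in the mutant and 1027 to 1122 in WT of the same experiment, mostly from CD3D. In the control range on all 8 arrays were 1 of 2 B cell, 0 of 1 erythroid, 2 of 3 epithelial and 2 of 3 fibroblast markers. In such bulk RNA, fewer cells of a type and less RNA per cell cannot be told apart, and the part of these differences in the values above was not tested.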

How the data were processed

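RNA was biotin-labelled and hybridised to 1-colour arrays, 1 array a sample, per the labels. Per the submitters' processing notes, the authors used RMA and Affymetrix Expression Console 1.1, and the deposited numbers are linear intensity values, 1 for each probe set and array. RMA makes the arrays' distributions equal, so a shift of most genes one way would not be seen, and it compresses differences of dim probe sets.

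Here log2 was taken, with no pseudocount. Of the 49395 probe sets, 44994 had 1 gene in the platform's annotation, 1832 several and 2569 none, and genes were named through RefSeq (GRCh38.p14). Comparisons subtract 1 array's log2 value from another's, without a p-value. A pathway gene's value was that of its probe set with the highest mean. The number of arrays limits the precision.

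The members, the pathway and marker lists, thresholds and alternatives were chosen with earlier results of these data known. The named genes were all members, of each pathway role the 2 to 4 with the largest differences and any past 2-fold, the markers, and the 5 genes most like TNFRSF1A among those ranked. The chromosome 12 neighbours CD9 and LTBR were named after their values were seen. The control range and the limma contrast of the 2 responses to TNF-alpha were added after the data were seen. Alternatives were 1.5-fold and 3-fold thresholds, other level filters (none, or log2 8), loess (span 0.3) and quantile normalization, fewer probe sets (no _x_at or _s_at), the mean of a gene's probe sets, the other or both WT arrays, and limma 3.58.1 (R 4.3.3; 1 residual degree of freedom, Benjamini-Hochberg, adjusted p 0.05). The limma code was also run on simulated data with less noise than the WT pair, which does not show how the fit performs here.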

Additional observations from a re-analysis of the deposited data

How the results depend on the processing

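Most counts at 2-fold were 0 and could not fall under stricter settings, so only changes are given. At 1.5-fold the members' count became 1 for the response of the TNFRSF1A mutant to TNF-alpha, 1 for the unstimulated JAK2 mutant, 1 for the response of the JAK2 mutant to IFN-gamma and 2 between the WT arrays, all from 0. Pathway genes then numbered 1 in the unstimulated mutant (0 at 2-fold), 4 in the mutant with TNF-alpha (1 at 2-fold) and 5 in the WT response (1 at 2-fold). The WT response gave 4 pathway genes at 2-fold with WT replicate 1 as control; the cause was not tested. With the other WT array as control, a value shifts by construction by the difference of the 2 WT arrays, which was at most 0.68 for the probe sets recomputed. It moved by more than the SD of the WT pair for TAB2 11757315_s_at (0.23 for the unstimulated mutant, 0.61 for the WT response) and IKBKB 11730928_a_at (-0.17 and -0.39). Loess moved single values by at most 0.04, quantile normalization by at most 0.07 and the mean of both WT arrays by at most 0.34. Sign changed in 12 of 104 values under 2-fold and in 0 of 16 past it. With limma, 0 members had an adjusted p under 0.05 in the 7 comparisons, with 3, 2 and 0 at an unadjusted p under 0.05 for the unstimulated mutant, the mutant with TNF-alpha and each of the others, beside 1.41%, 1.51% and 0.00742% to 4.71% of all probe sets. That fit called 0 probe sets at an adjusted p under 0.05 except 9 in the unstimulated JAK2 mutant, so it says little about stability. Members in these limma counts are all 33 compared probe sets, including the 4 of the trapped gene TNFRSF1A. No paired analysis was possible because the groups compared share fewer than 2 replicate numbers. Signal over background limits IKBKG, the 3 dimmer TNFRSF1A probe sets and the dim IKBKB probe sets.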
